A study of Mus musculus with 12 samples.

Results

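The smooth muscle contractile set held 10 genes of the 51467 genes counted: the actins Acta1, Acta2 and Actg2, the regulatory myosin light chain Myl9 and its kinase Mylk, the calponin-family genes Tagln, Cnn1 and Cnn2, and the tropomyosins Tpm1 and Tpm2. It was chosen on measured values of these same libraries, because Myl9, Tagln and Acta1 were higher in epiblast-like cells (EpiLC) than in embryonic stem cells (ESC) and had a higher ratio of total to nascent RNA there. For these 3 genes the values are a description and carry no test; the other 7 were listed by family, with results of the series already known. The ESCs were mouse cells grown in serum medium with LIF and both 2i inhibitors (PD0325901 and CHIR99021), and the EpiLCs were collected about 56 h after the LIF/2i medium was taken off. Cells of all 4 groups were labelled for 30 min with 500 µM 4-thiouridine (4sU), a uridine analogue; biotin capture of the labelled RNA gave the 4sU (nascent) libraries, and unselected RNA depleted of ribosomal RNA gave the total libraries. Each cell type and assay had 3 libraries, 12 in all. The labels name no strain, sex or genotype for the cells or how the 3 libraries were obtained. The study lists an ESC line carrying mCherry and GFP microRNA reporters for its ESC to EpiLC differentiation. It calls its replicates biological without saying what was grown separately, so p-values measure the spread between these libraries.

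In smooth muscle, force comes from myosin II pulling on actin filaments after Mylk has phosphorylated the regulatory light chain. Tropomyosins lie along the filament, while transgelin (Tagln) and the calponins bind its side. Most of these genes are known targets of serum response factor (Srf), which binds the CArG box and works with myocardin or with the myocardin-related factors Mrtfa and Mrtfb, themselves held in the cytoplasm by unpolymerised actin. Several members are also made at lower levels outside muscle, as parts of stress fibres.

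Because the members are known through the CArG box, the RefSeq promoter windows (GRCm38.p6, 250 bases before to 50 after the annotated start, 300 in all) were searched for it. Windows were held for 8 of the 10 members, none for Tagln and Actg2. Those with a match are shown, 5′ to 3′ on the gene's strand, with matches in capitals. The motif reads the same on both strands, so a single search covers both; a match "1 letter off" has a C or G in place of 1 of its A or T letters. Myl9 lies at chr2:156775214-156775513 (+), Acta1 at chr8:123894726-123895025 (-), Acta2 at chr19:34255324-34255623 (-) and Cnn2 at chr10:79988350-79988649 (+).
Myl9: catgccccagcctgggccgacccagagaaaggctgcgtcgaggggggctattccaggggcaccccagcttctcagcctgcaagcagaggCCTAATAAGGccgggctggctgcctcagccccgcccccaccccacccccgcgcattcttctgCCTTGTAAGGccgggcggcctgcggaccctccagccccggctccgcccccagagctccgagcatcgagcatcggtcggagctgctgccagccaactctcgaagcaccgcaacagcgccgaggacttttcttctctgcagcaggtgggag
Acta1: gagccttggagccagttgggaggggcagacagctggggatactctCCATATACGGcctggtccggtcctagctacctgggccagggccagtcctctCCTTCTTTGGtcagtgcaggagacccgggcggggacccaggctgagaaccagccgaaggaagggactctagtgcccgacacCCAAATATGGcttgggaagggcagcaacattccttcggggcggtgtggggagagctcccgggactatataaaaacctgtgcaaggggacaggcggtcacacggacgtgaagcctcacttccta
Acta2: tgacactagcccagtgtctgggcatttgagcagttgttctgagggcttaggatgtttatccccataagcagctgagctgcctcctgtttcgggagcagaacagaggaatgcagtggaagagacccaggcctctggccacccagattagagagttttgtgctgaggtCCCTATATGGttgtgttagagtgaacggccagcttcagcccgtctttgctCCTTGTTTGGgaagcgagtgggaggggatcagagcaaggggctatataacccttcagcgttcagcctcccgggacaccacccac
Cnn2: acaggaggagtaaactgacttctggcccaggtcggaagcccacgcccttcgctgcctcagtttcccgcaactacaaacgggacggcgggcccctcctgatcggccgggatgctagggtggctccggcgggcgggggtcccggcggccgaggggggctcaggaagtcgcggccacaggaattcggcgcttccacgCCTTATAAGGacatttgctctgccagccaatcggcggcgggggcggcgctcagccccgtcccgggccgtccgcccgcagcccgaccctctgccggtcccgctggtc

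Counted from the annotated start, with the base before it at -1, an exact match began at -161 in Myl9, at -73 in Acta1 and at -56 in Cnn2. Matches 1 letter off began at -99 in Myl9, at -205 and -154 in Acta1, and at -84 and -34 in Acta2. The windows of Cnn1, Tpm1, Tpm2 and Mylk held no match of either kind. Of all 32851 RefSeq promoter windows, 1.63% held an exact match and 9.98% an exact match or one 1 letter off. A match is a string of letters, not a measured binding site.

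Counts summed to 3097693 to 5385644 per 4sU library and to 9300845 to 21975684 per total library and the shallower 4sU libraries set the counting error of nascent values. The third ESC library of each assay stood apart. Its chi-square per degree of freedom was 24.8 and 25.4 against the other ESC total libraries, which gave 2.39 against each other, and 9.79 and 7.85 against the other ESC 4sU libraries, which gave 4.46. Without both of these libraries every call of a member given here stood. The 5 naive markers (Klf4, Esrrb, Tbx3, Zfp42 and Nr5a2) were all called lower in EpiLC and the 4 formative markers (Fgf5, Otx2, Dnmt3b and Pou3f1) all higher, in total and nascent RNA alike. Of 10 smooth muscle markers outside the set, 7 passed the filter and 3 did not: the myosin heavy chain Myh11 (0.197 CPM in ESC and 0.767 in EpiLC total RNA, as means), Pln (1 read over all 12 libraries) and Kcnmb1 (0 reads in ESC and 8 in EpiLC total RNA, at least 4.54-fold higher). In 4sU RNA Kcnmb1 had 7 reads in ESC and 7 in EpiLC. The set is named here for what its genes do; whether smooth muscle cells were present was not measured.

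In all, 8 contractile genes had at least 3 CPM in at least 3 libraries and were tested. CPM is counts per 1000000 of the library, unscaled in the filter and with TMM scaling for RNA composition where printed. Each of the 8 had more total RNA in every EpiLC library than in any ESC library. The share of all genes that separate this way was not counted, so nothing is read from it. Of the 8, Acta1, Acta2 and Cnn1 passed the filter only through EpiLC, so the number and median of the 8 genes are no support for a rise. All 8 were called higher in total RNA and 7 in nascent RNA (adjusted p under 0.05 and a log2 change over 1), and none was called lower. Over the 14731 genes tested, 16.3% were called higher and 11.2% lower in total RNA, and 11.9% higher and 13.5% lower in nascent RNA; since the set was chosen on this comparison, nothing is read from its counts. The median log2 change, EpiLC minus ESC, was 4.56 in total and 2.56 in nascent RNA over the 8 genes, against 0.02 and -0.09 over all genes tested. In these bulk samples, more cells making a transcript and more transcript per cell cannot be told apart.

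**Figure D1:**
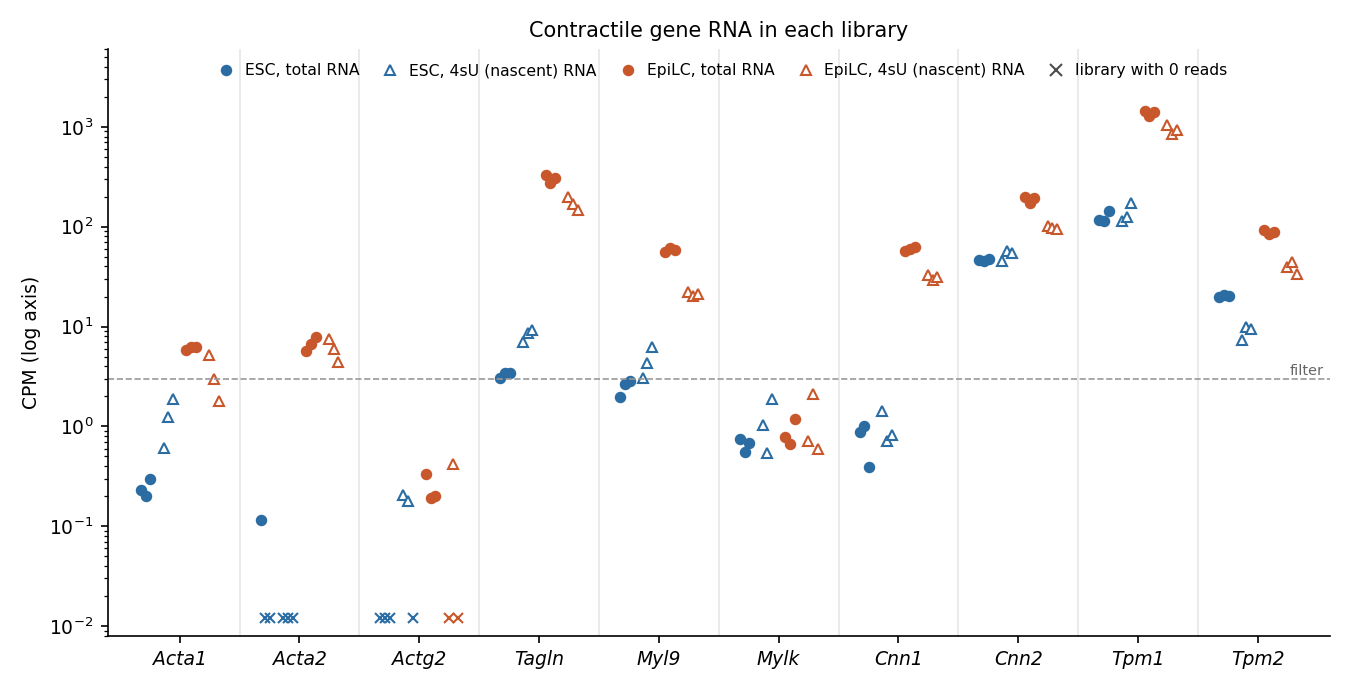
CPM (log axis) of the 10 contractile genes in each library. Filled circles are total and open triangles 4sU RNA, blue ESC and orange EpiLC, and crosses mark libraries with 0 reads. The dashed line is at 3 CPM, the level of the filter, which was applied before TMM scaling. Actg2 and Mylk stayed under the line in every library.

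Of the muscle actins, Acta1, the skeletal alpha-actin (mm10 chr8:123891769-123894751, minus strand), was barely detected in ESC total RNA, at 0.232, 0.201 and 0.295 CPM, which is 4, 4 and 3 reads. In EpiLC total RNA it had 5.80, 6.25 and 6.26 CPM. Its nascent RNA stood at 0.613, 1.25 and 1.90 CPM in ESC and at 5.18, 2.97 and 1.78 CPM in EpiLC, so that the nascent ranges overlapped while the total ranges lay far apart. The log2 change was 4.54 ± 0.43 (SE) in total and 1.41 ± 0.46 in nascent RNA, and the nascent call was lost without the first ESC 4sU library (0.99) or the first EpiLC 4sU library (1.12).

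Acta2, the smooth muscle alpha-actin and the usual marker of smooth muscle and myofibroblasts (mm10 chr19:34241090-34255336, minus strand), went from almost no reads to a low level. ESC 4sU libraries held 0 reads each and ESC total libraries 2, 0 and 0; EpiLC 4sU libraries held 32, 28 and 15 and EpiLC total libraries 51, 70 and 79. In CPM the EpiLC total level was 5.69, 6.63 and 7.85, close to that of Acta1. From reads pooled over each group and divided by library totals, nascent Acta2 RNA was at least 29.2-fold higher in EpiLC, taking 3 reads over the ESC group as the floor. Total Acta2 RNA was 170-fold higher as a ratio on 2 ESC reads, fewer than that floor. Its exact 95% interval of 46.5 to 1415 covers counting error only. The adjusted p for Acta2 was 3.9e-08 in total and 1.01e-06 in nascent RNA (limma-voom). Neither p is support for a rise, since Acta2 passed the filter only through EpiLC. Its nascent fit also rests on the prior added to 0 reads, so no stability change is given for Acta2.

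Actg2, the enteric smooth muscle gamma-actin, stayed below the filter. It had 0 reads in ESC total libraries and 3, 2 and 2 in EpiLC total libraries, which puts it at least 3.97-fold higher, and 2 reads in 4sU libraries of each cell type, which allow no fold. Against these stood the cytoplasmic actins: Actb, the main actin of non-muscle cells, had 3848 ± 123 CPM (SD, n = 3) in ESC and 3859 ± 95.6 CPM in EpiLC total RNA, a log2 change of 0.00 ± 0.07 (adjusted p = 0.96, limma-voom). Actg1 changed by -0.04 ± 0.23 (adjusted p = 0.901, limma-voom), but 36.3% of its 50-base windows recur in transcripts of other genes and only uniquely placed reads were counted, so its level is uncertain. The same windows recurred for 2.02% of Acta1, 0.326% of Acta2 and 4.56% of Mylk, and for none of the other 7 members.

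Among the calponin family, Tagln had the largest total change of the genes with reads in every library, and Cnn1, the calponin of differentiated smooth muscle, the next. Tagln (mm10 chr9:45929619-45936058, minus strand) had 3.07, 3.42 and 3.44 CPM in ESC total RNA and 329, 276 and 310 CPM in EpiLC total RNA. Its nascent RNA was 6.95, 8.59 and 9.22 CPM in ESC and 201, 170 and 149 CPM in EpiLC. In CPM, which is relative to each library, Tagln thus stood higher in the 4sU than in the total libraries of ESC, and lower in EpiLC. The log2 change was 6.52 ± 0.18 in total and 4.38 ± 0.21 in nascent RNA. On the opposite strand, 971 of its 1595 exon bases overlap Pcsk7 and Gm48529, which the strand-specific counting kept separate.

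Cnn1 (mm10 chr9:22099216-22109630, plus strand) had 0.869, 1.01 and 0.393 CPM in ESC total RNA and 57.5, 59.2 and 62.7 CPM in EpiLC total RNA. Its nascent RNA was 1.43, 0.716 and 0.813 CPM in ESC and 33.0, 29.2 and 31.5 CPM in EpiLC, and neither assay's groups came near each other. It rose by 6.23 ± 0.27 on the log2 scale in total RNA (adjusted p = 1.2e-10) and by 4.89 ± 0.36 in nascent RNA (adjusted p = 9.82e-08, limma-voom). Its ESC values rest on 4 to 20 reads a total library. Cnn1 passed the filter only through EpiLC, so these p-values are no support for its rise.

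Cnn2, the calponin of smooth muscle and of many non-muscle cells (mm10 chr10:79988584-79996062, plus strand), was already present in ESC, at 46.6, 45.8 and 47.1 CPM of total RNA, and had 199, 171 and 192 CPM in EpiLC. Its nascent RNA was 45.2, 57.8 and 54.8 CPM in ESC and 103, 97.9 and 94.4 CPM in EpiLC. It rose by 2.01 ± 0.09 in total RNA (adjusted p = 1.26e-10, limma-voom). The nascent change of 0.91 ± 0.11 (adjusted p = 6.73e-06, limma-voom) fell short of the fold threshold, which it passed without the second ESC 4sU library (1.04) or the third EpiLC 4sU library (1.01).

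Of the tropomyosins, Tpm1 (mm10 chr9:67022590-67049406, minus strand), which encodes both muscle and non-muscle forms, was the most abundant member in both cell types. It had 115, 115 and 145 CPM in ESC total RNA and 1451, 1294 and 1409 CPM in EpiLC total RNA, and its nascent RNA went from 114, 126 and 171 CPM to 1054, 855 and 935 CPM. It rose by 3.48 ± 0.12 in total (adjusted p = 1.87e-11) and 2.82 ± 0.13 in nascent RNA (adjusted p = 1.35e-09, limma-voom). Tpm2, which encodes beta-tropomyosin (mm10 chr4:43514711-43523595, minus strand), had 19.8, 20.7 and 20.2 CPM in ESC and 92.7, 85.3 and 89.4 CPM in EpiLC total RNA. Its nascent RNA was 7.36, 9.84 and 9.49 CPM in ESC and 39.8, 44.1 and 33.8 CPM in EpiLC. The change was nearly the same in both assays: it rose by 2.14 ± 0.09 in total (adjusted p = 1.16e-10) and 2.15 ± 0.17 in nascent RNA (adjusted p = 1.73e-07, limma-voom).

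Of the myosin genes, Myl9 (mm10 chr2:156775420-156781658, plus strand), the regulatory light chain typical of smooth muscle, had 1.97, 2.67 and 2.85 CPM in ESC total RNA and 56.0, 61.0 and 58.8 CPM in EpiLC total RNA. Its nascent RNA was 3.07, 4.29 and 6.24 CPM in ESC and 22.4, 20.1 and 21.4 CPM in EpiLC. As with Tagln, every ESC pair had a higher 4sU than total CPM and every EpiLC pair a higher total than 4sU CPM. The log2 change was 4.58 ± 0.17 in total and 2.30 ± 0.24 in nascent RNA. Mylk, the kinase that acts on this light chain (mm10 chr16:34784921-35002420, plus strand), stayed below the filter, with 13, 11 and 7 reads in ESC and 7, 7 and 12 in EpiLC total libraries. Its ratio, EpiLC over ESC, was 1.43 in total RNA (exact 95% interval 0.814 to 2.49, counting error only) and 1.17 in nascent RNA (0.532 to 2.56), so a change in either direction within those bounds was not detectable at this depth. Without the filter its total change was 0.33 ± 0.44 (adjusted p = 0.591, limma-voom).

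Divided by exon length, which makes genes comparable, the order of total RNA in ESC was Tpm1 (26.2 CPM per kb), Cnn2 (18.9), Tpm2 (8.49), Myl9 (2.21), Tagln (2.08), Cnn1 (0.30), Acta1 (0.168), Mylk (0.085), Acta2 (0.0217) and Actg2 with no read. In EpiLC it was Tpm1 (289.6 CPM per kb), Tagln (191), Cnn2 (76.2), Myl9 (52.0), Tpm2 (37.4), Cnn1 (23.7), Acta1 (4.22), Acta2 (3.78), Actg2 (0.176) and Mylk (0.112). Tagln moved from the fifth to the second place. Neighbours whose libraries overlapped were Myl9 with Tagln, Cnn1 with Acta1 and Acta2 with Actg2 in ESC, and Acta1 with Acta2 and Actg2 with Mylk in EpiLC. The alpha-actins stayed far below the actin-binding members: at 4.22 and 3.78 CPM per kb, both lay under the level of Cnn1 in every EpiLC total library.

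Within their families, Tagln, Myl9, Cnn1, Cnn2 and Tpm1 went to a larger share of the RNA, a measure that does not depend on how libraries are scaled. The actin members stayed a trace of theirs. Of muscle and cytoplasmic actin total RNA per kb, Acta1 held 0.008% in ESC and 0.209% in EpiLC, and Acta2 0.001% and 0.187%. Actg2 held 0.009% in EpiLC, and Actb 99.9% in ESC and 99.4% in EpiLC. Tagln held 1.79 ± 0.08% of transgelin total RNA per kb in ESC and 69.6 ± 1.1% in EpiLC (SD, n = 3), while Tagln2, the form of non-muscle cells, went from 93.3 ± 1.2% to 29.5 ± 0.94%. In level Tagln2 went from 108 ± 1.8 to 80.9 ± 3.6 CPM per kb, while the transgelin sum went from 116 ± 3.5 to 275 ± 20. Myl9 went from 1.1 ± 0.20% to 19.9 ± 1.5% of the 3 regulatory light chain genes. Here Myl12a and Myl12b, its non-muscle relatives, still held 46.8 ± 2.2% and 33.3 ± 1.6% in EpiLC. Myl12a and Myl12b share 21.1% and 19.1% of their windows with other genes, so reads of theirs that were dropped would raise the share shown for Myl9. The same holds for the shares of members beside Tpm3 (23.2% of windows), Tpm4 (11.7%) and Cnn3 (10.3%).

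Among calponins, Cnn1 went from 0.109 ± 0.041% to 9.42 ± 0.62% and Cnn2 from 7.0 ± 0.64% to 30.2 ± 0.78%, while Cnn3 remained the main form at 92.9 ± 0.60% and 60.4 ± 0.33%. The sum over calponins differed little, 271 ± 21.1 CPM per kb in ESC and 252 ± 13.1 in EpiLC, with overlapping libraries. Tropomyosin RNA in sum went from 162 ± 18.6 to 574 ± 25.7 CPM per kb. Of that sum Tpm1 took 16.1 ± 0.36% in ESC and 50.5 ± 1.2% in EpiLC, whereas Tpm2 took 5.27 ± 0.61% and 6.52 ± 0.16%. The shares of Tagln, Myl9, Cnn1, Cnn2 and Tpm1 did not overlap between cell types, and those of Tpm2 did not either, by a small margin (at most 5.80% in ESC and at least 6.35% in EpiLC).

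**Figure D2:**
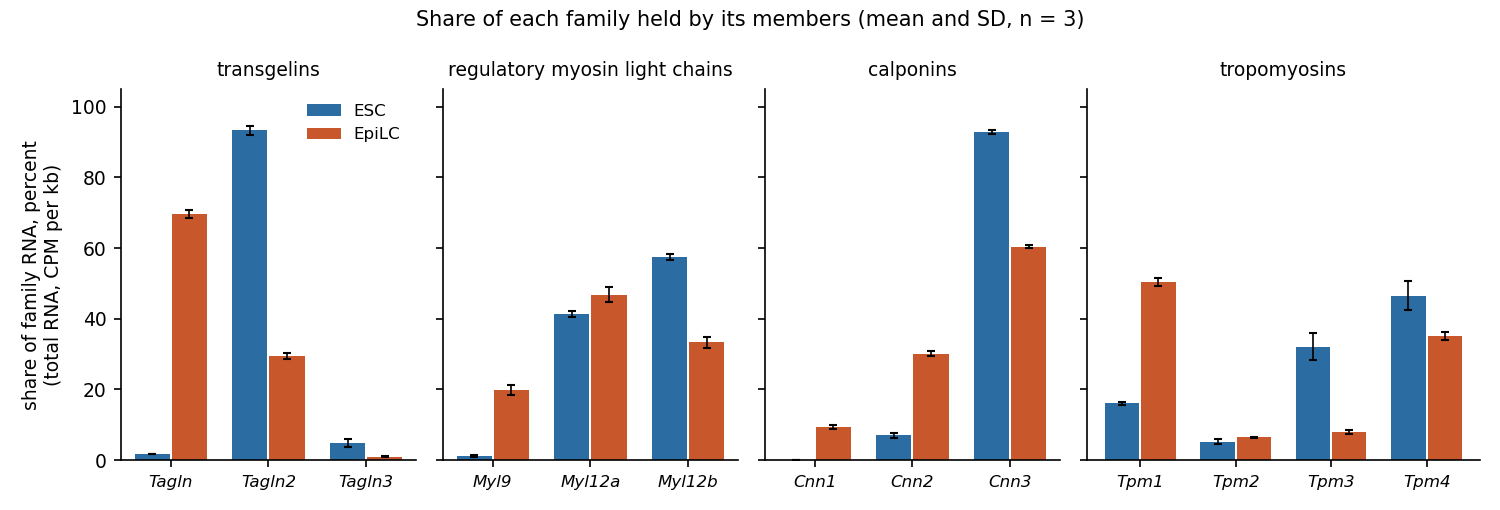
Share of each family's total RNA held by each of its genes, in percent of CPM per kb, for ESC (blue) and EpiLC (orange). The actins are not drawn. Bars are means and error bars SD over 3 libraries. Tagln went from 1.79% to 69.6% of transgelins and Tpm1 from 16.1% to 50.5% of tropomyosins, while Tpm2 went from 5.27% to 6.52%.

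Relative stability is the log2 ratio of total to 4sU CPM, and its change is the total change minus the nascent change, tested as the interaction of cell type and assay. It is called apparent stability here because it compares RNA pools and measures no decay. Of the contractile genes 4 were called higher and none lower, against 1.24% called higher and 0.305% lower over all genes tested; 3 of the 4 are the genes the set was chosen on, so nothing is read from that count. The median change was 1.22 over the 8 genes tested (1.33 without Acta2), against 0.11 over all genes. Values per replicate number pair the 4sU and total library with the same number. They were taken after adding a prior of 0.5 reads, scaled to library size, which pulls values on few reads toward 0. The protocol says that each labelled RNA was split for the 2 assays. Whether libraries sharing a number came from a single split RNA is not stated.

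For the genes that chose the set, the ratio went from below to above the median of all genes. Acta1 had -1.21, -2.34 and -2.47 in ESC and 0.16, 1.06 and 1.78 in EpiLC, moving from the 15.8th to the 74.6th percentile of genes tested. Tagln had -1.16, -1.31 and -1.41 in ESC and 0.72, 0.70 and 1.06 in EpiLC, from the 22.3rd to the 69.6th percentile. Myl9 had -0.62, -0.68 and -1.11 in ESC and 1.32, 1.60 and 1.46 in EpiLC, from the 30.0th to the 85.9th percentile. In none of these 3 did the cell types overlap. Their stability changes were 3.13 ± 0.63, 2.13 ± 0.27 and 2.28 ± 0.29 on the log2 scale, and that of Acta1 rests on 11 ESC total reads and 17 ESC 4sU reads in all.

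Among the members listed by family and tested, Acta2 aside, the change ran from -0.01 to 1.33. Cnn2 had 0.04, -0.33 and -0.22 in ESC and 0.95, 0.81 and 1.02 in EpiLC, with no overlap, and rose by 1.10 ± 0.14 (adjusted p = 0.00135, limma-voom). That value lay close to the fold threshold and fell under it without the second ESC 4sU library (0.95), the third ESC 4sU library (0.99) or the third EpiLC 4sU library (0.99). Cnn1 had -0.68, 0.46 and -0.95 in ESC and 0.80, 1.02 and 0.99 in EpiLC, again without overlap, but its change of 1.33 ± 0.45 did not pass (adjusted p = 0.0986, limma-voom; 95% interval 0.37 to 2.29).

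Tpm1 had 0.01, -0.13 and -0.24 in ESC and 0.46, 0.60 and 0.59 in EpiLC, a difference of 0.67 ± 0.18 (adjusted p = 0.0509, limma-voom), under the fold threshold. Tpm2 already had a high ratio in ESC, 1.42, 1.07 and 1.08, and had 1.22, 0.95 and 1.40 in EpiLC, at the 80.3rd and 79.7th percentiles. Its change was -0.01 ± 0.19 (adjusted p = 0.981, limma-voom), with a 95% interval of -0.42 to 0.40 and a sign that turned with the scaling. The stability changes of Cnn2, Cnn1 and Tpm1 were above 0 under each alternative run.

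**Figure D3:**
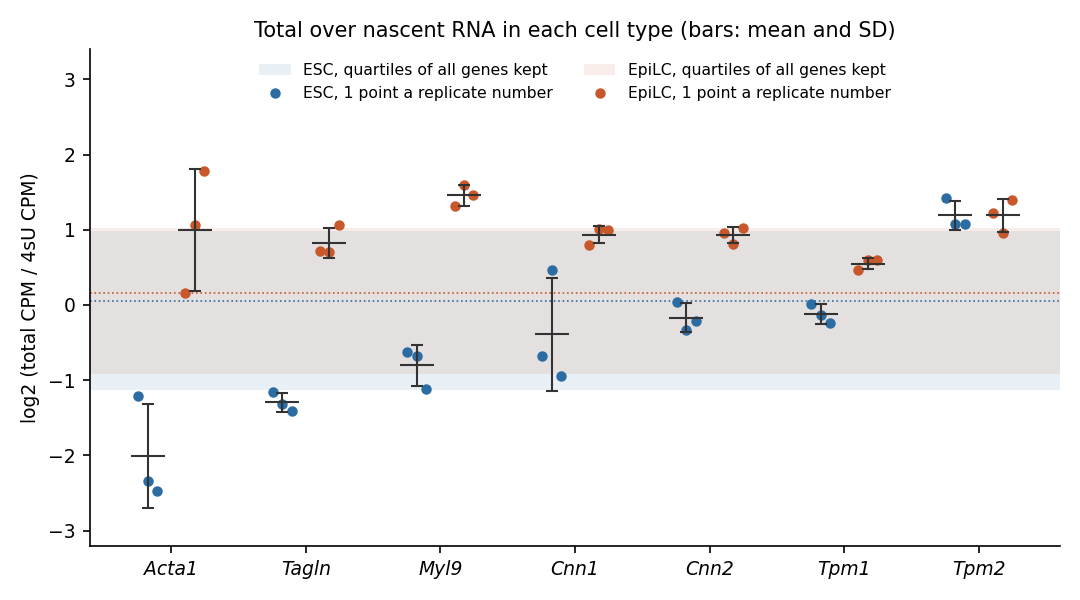
Log2 ratio of total to 4sU CPM for the 7 contractile genes that passed the filter and had reads in every library, ESC blue and EpiLC orange, 1 point per replicate number, with mean and SD. Shading spans the lower to the upper quartile of all genes tested in each cell type and dotted lines their medians. Acta1, Tagln and Myl9 moved most, from means of -2.01, -1.29 and -0.80 to 1.00, 0.83 and 1.46, and Tpm2 stood at 1.19 in both.

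**Figure D4:**
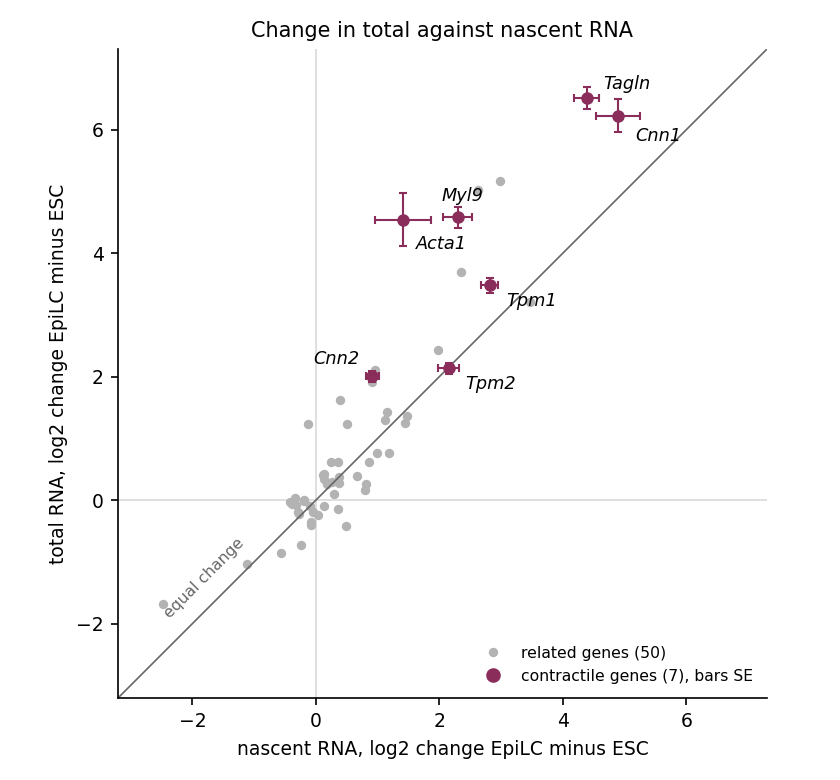
Log2 change in total RNA (vertical) against nascent RNA (horizontal), EpiLC minus ESC, for 7 contractile genes with SE bars and, in grey, 50 related genes. Acta2 is left out because its ESC 4sU libraries held no read. Acta1, at 1.41 nascent and 4.54 total, lay farthest above the line of equal change, and Tpm2, at 2.15 and 2.14, lay on it.

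Uridine, the base that 4sU replaces, was counted in the principal transcript. It made up 17.3% of Myl9, 21.3% of Acta1 and Mylk, 21.8% of Cnn2, 22.4% of Tagln, 22.7% of Actg2, 23.0% of Cnn1 and 24.7% of Acta2, against a median of 24.4% over 9298 genes tested. Myl9 stood at the 1.72nd percentile, and the other 7 between the 18.8th and the 53.6th. Transcript length was 1446 bases for Acta1, 1595 for Tagln and 1128 for Myl9, with 2922 as the median. The part of uridine content in the ratios was not tested. GENCODE M21 marks no principal transcript for Tpm1 and Tpm2 by the label used here.

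Likeness to the chosen members was measured over the 12 libraries as the Euclidean distance of log2 of CPM plus 0.5, centred on each gene's mean, and the added 0.5 draws together genes that lie near 0 in ESC. Nearest to Tagln were Fermt1 (distance 1.26), Tmem200a (1.63) and, from within the set, Cnn1 (1.64). Nearest to Myl9 were Thbs4 (1.23), Olfr1372-ps1 (1.25) and Rasd2 (1.32), and nearest to Acta1 were Mir670hg (1.01), Fut4 (1.22) and Peg10 (1.57). The names depend on that choice. With 0.5 reads added in place of 0.5 CPM, an alternative added after seeing the data, the nearest to Tagln were Cntn1, Dcn and Hs6st2, to Myl9 Dennd2d, Eif4e3 and Olfr1372-ps1, and to Acta1 Fut4, Gnao1 and Ackr4, so that only Olfr1372-ps1 and Fut4 were in both lists.

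The wider contractile pathway was followed in 58 further genes, listed by function with the results for the members known, of which 50 passed the filter. In total RNA 14 of them rose and 2 fell, in nascent RNA 10 rose and 1 fell, and in stability 2 rose and none fell. That is 28% higher and 4% lower in total RNA against 16.3% and 11.2% of all genes tested, 20% and 2% in nascent RNA against 11.9% and 13.5%, and 4% higher in stability against 1.24%. With a replicate block that pairs the 4sU and total library of a number, 5 of the 50 were called higher in stability. Over all 14731 genes that block called 405 higher. The 5 were Srf and Zyx as without the block, and Actc1 (2.39, adjusted p = 0.0216), Lmod1 (1.24, adjusted p = 0.0387) and Tgfb1i1 (2.19, adjusted p = 0.0485, limma-voom). Over the ESC total libraries, Tgfb1i1 had 3 reads and Actc1 4. Actc1 passed the filter only through EpiLC, so its p-values and the shares that count it are no support for a rise. The median log2 change of the 50 was 0.29 in total, 0.28 in nascent RNA and 0.08 in stability, against 0.02, -0.09 and 0.11 over all genes.

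Of 11 tested relatives from the members' own families, Tpm4 and Actc1 rose and Tagln3 fell in total RNA, and the share that rose, 18.2%, was near the 16.3% of all genes; the median change was -0.19. Tpm4, a non-muscle tropomyosin, rose by 1.43 ± 0.12 in total (adjusted p = 7.95e-08) and by 1.16 ± 0.14 in nascent RNA (adjusted p = 1.19e-05, limma-voom). None was called for stability, where Cnn3 had -0.48 ± 0.15 (adjusted p = 0.0769) and Myl12a 0.36 ± 0.12 (adjusted p = 0.104, limma-voom). Actc1, the cardiac alpha-actin, had a larger stability change of 2.40 ± 0.66 (adjusted p = 0.0521, limma-voom) on 4 ESC total reads and 9 ESC 4sU reads, and Tagln2 one of -0.91 ± 0.14 (adjusted p = 0.00565, limma-voom), under the fold threshold. Among 7 tested smooth muscle markers outside the set, Cald1, Lmod1 and Synpo2 rose in total RNA (42.9% of the list). Cald1, whose caldesmon binds actin and myosin, rose by 1.25 ± 0.15 (adjusted p = 5.04e-06, limma-voom), and its stability change was -0.19 ± 0.24 (adjusted p = 0.686, limma-voom). That of Lmod1, a leiomodin, which starts actin filaments, was 1.24 ± 0.39 (adjusted p = 0.0818, limma-voom).

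Regulators of the program included 11 tested genes, of which Srf and Mrtfb rose and Elk3 fell in total RNA, so that 18.2% of the list rose. Srf, the factor that binds the CArG box, had 56.2 ± 2.4 CPM (SD, n = 3) in ESC and 133 ± 3.7 CPM in EpiLC total RNA, a rise of 1.24 ± 0.11 (adjusted p = 2.56e-07, limma-voom). Its nascent RNA was 149 ± 25 CPM in ESC and 135 ± 19 CPM in EpiLC, a change of -0.12 ± 0.12 (adjusted p = 0.408, limma-voom). The stability change was 1.36 ± 0.17 (adjusted p = 0.00127, limma-voom). Mrtfb, an Srf cofactor, rose by 1.24 ± 0.13 in total RNA (adjusted p = 1.44e-06, limma-voom). Myocd, the gene for myocardin, stayed below the filter with 1 read in ESC and 17 in EpiLC total libraries, a ratio of 28.9 (exact 95% interval 4.53 to 1209, counting error only). In nascent RNA it had 2 reads in ESC and 25 in EpiLC, 18 of them in the second EpiLC library, a ratio of 14.6 (3.64 to 127).

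Of 12 cytoskeletal genes known as targets of Srf and its cofactors, Vcl, Zyx, Fhl2, Filip1l, Tgfb1i1 and Pdlim7 rose in total RNA (50% of the list) and none fell, with a median change of 1.06. Pdlim7, a scaffold of actin filaments, rose by 2.43 ± 0.13 in total (adjusted p = 9.05e-10) and 1.98 ± 0.13 in nascent RNA (adjusted p = 3.15e-08, limma-voom). Zyx, the focal adhesion protein zyxin, rose by 2.11 ± 0.13 in total RNA (adjusted p = 6.02e-09, limma-voom). Its stability change was 1.15 ± 0.17 (adjusted p = 0.00382, limma-voom). Vcl, which encodes vinculin, rose by 1.36 ± 0.08 in total (adjusted p = 1.89e-09) and 1.48 ± 0.09 in nascent RNA (adjusted p = 1.92e-08, limma-voom). Flna, the actin cross-linker filamin A, rose by 1.18 ± 0.09 in nascent RNA (adjusted p = 1.27e-07, limma-voom). Its total change of 0.76 ± 0.07 (adjusted p = 4.8e-07, limma-voom) fell short of the fold threshold. The stability change of Flna, -0.42 ± 0.12, was not called.

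Of 9 genes of myosin II and its control, Myh10, a non-muscle heavy chain, rose by 1.30 ± 0.11 in total (adjusted p = 1.79e-07) and 1.11 ± 0.13 in nascent RNA (adjusted p = 9.15e-06, limma-voom), and the median total change was 0.11. For stability none of the 9 was called: Myh9 had -0.22 ± 0.11 (adjusted p = 0.247), Ppp1cb -0.19 ± 0.12 (adjusted p = 0.369) and Myh10 0.18 ± 0.18 (adjusted p = 0.577, limma-voom).

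**Figure D5:**
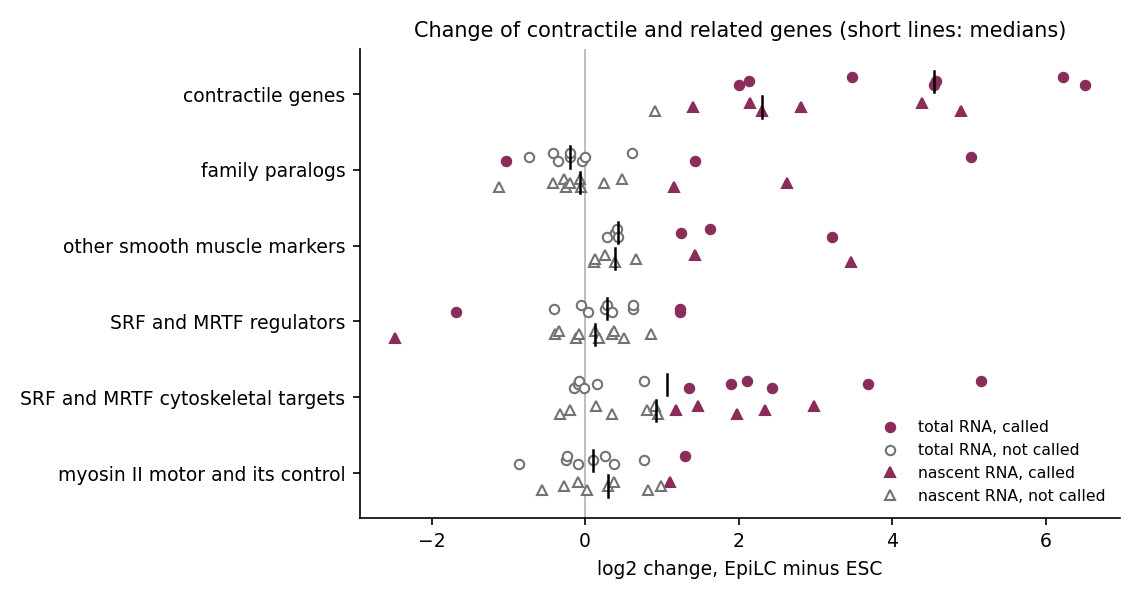
Log2 change, EpiLC minus ESC, in total (circles) and nascent RNA (triangles) for 7 contractile genes (without Acta2) and 5 lists of related genes. Filled symbols were called and short lines mark medians. The cytoskeletal targets, with a median of 1.06 in total RNA, sat highest among the related lists, and family paralogs, with -0.19, lowest.

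Markers of other cells that could hold contractile RNA were read alongside. Of 12 fibroblast markers 7 passed the filter, and Col1a2, Dcn, Twist1 and Lox were called higher and Pdgfrb lower, in total and nascent RNA alike. Of the 7, 57.1% were thus higher and 14.3% lower. Over all genes tested these shares were 16.3% and 11.2% in total and 11.9% and 13.5% in nascent RNA. Over the ESC 4sU libraries Col1a2 and Lox had 1 read each and Dcn 0, so their nascent changes rest on few reads. Dcn, with 0 reads in ESC, passed the filter only through EpiLC, so the share called higher is no support for a rise. The summed level of the 12 was 16.2 to 22.1 CPM in ESC and 43.4 to 49.3 CPM in EpiLC total RNA, and 12.7 to 15.7 and 28.8 to 36.8 CPM in 4sU RNA. Dcn was called for stability, from 0 reads in all ESC libraries; Lum and Postn had at most 1 read in any library. Of 12 striated muscle markers 4 passed, with Myh6 and Actn2 higher and Myl7 and Ttn lower in total RNA, 50% of the 4 each way. The summed level of the 12 was 487 to 939 CPM in ESC and 89.5 to 99.5 CPM in EpiLC. Most of that sum was Ttn, with means of 632 CPM in ESC and 75.6 CPM in EpiLC total RNA. Myod1 had no read in any ESC library and at most 3 in an EpiLC library. The part of other cell types in the contractile values was not tested.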

How the data were processed

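RNA-seq of mouse ESC and EpiLC was analysed from the table of raw read counts per gene that the authors deposited. They trimmed adapters from 50-base single-end reads with cutadapt 1.14, aligned to mm10 with STAR 2.5.3a, kept unique positions and counted exons by strand with featureCounts 1.5.3 on GENCODE M14 without ribosomal RNA. Near-identical copies therefore lose reads. The 92 spike-in entries held 0 reads.

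Genes with 3 CPM in 3 libraries (14731) entered a limma-voom model of the 12 libraries, after that of the study (R 4.3.3 with limma 3.58.1, and TMM factors from edgeR 4.0.16). Contrasts were EpiLC minus ESC in total and in 4sU RNA, and their difference (stability). Adjusted p is Benjamini-Hochberg over all genes tested; a call needed 0.05 and an absolute log2 change of 1. CPM is TMM-scaled. Folds from few reads use pooled reads over library totals, with exact 95% intervals for counting error only. A group with 0 reads was set to a floor of 3 reads, and its fold is given as at least that size. No fold was taken where both groups were at or under the floor. The fit was tested on simulated data. Symbols and transcripts came from GENCODE M21 (51274 of 51467 genes matched), promoters from RefSeq (GRCm38.p6).

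The members and all gene lists were chosen with earlier results of these data known. Named are the 10 members, Actb and Actg1, for each list and contrast up to 3 called genes of largest change with a mean of at least 10 CPM (or, with no call, the 3 most abundant), and the 3 genes nearest to each chosen member. Other genes are named to complete a count or for family shares, after their values were seen. Alternatives used DESeq2 1.42.0, edgeR's quasi-likelihood test, other scalings, filters, thresholds, replicate blocks and left-out libraries.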

Additional observations from a re-analysis of the deposited data

Results flagged for a closer look

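The other members and the related genes, without those that chose the set, were searched for stability calls by the interaction term of limma-voom. For 3 of these genes the total change differed from the nascent change past both thresholds, adjusted p and fold. Over all 14731 genes tested, 1.24% were called higher and 0.305% lower. The total-over-nascent change, EpiLC against ESC, was 1.10 ± 0.14 (SE) for Cnn2 (adjusted p = 0.00135), 1.36 ± 0.17 for Srf (adjusted p = 0.00127) and 1.15 ± 0.17 for Zyx (adjusted p = 0.00382). In each of them the log2 ratio was higher in all 3 EpiLC pairs than in all 3 ESC pairs. That separation is no added support, since the genes were picked on this difference in the same libraries. Groups of 3 libraries are too small for the search for single outlying samples.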

How the results depend on the processing

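No called value changed direction under any alternative run. In total RNA all 8 members were called under each, and in nascent RNA 6 to 8 with a library left out. The member median (total 4.56, nascent 2.56, stability 1.22) was 4.65 in total with library totals alone, 4.48 without the filter, 4.66 with quality weights and 4.65 without both libraries of ESC number 3; 2.71 in nascent RNA without those 2 libraries; and in stability 1.13 with median-of-ratios scaling, 1.12 without the filter, 1.07 with DESeq2, 1.07 with quality weights and 1.11 without those 2 libraries. With each library left out it ran from 4.44 to 4.66, 2.36 to 2.80 and 1.08 to 1.52. Members called for stability were 3 or 4 with a library left out and 0 with limma treat, which tests against the fold threshold and called 2 genes in the whole table. DESeq2 gave no adjusted p for Acta1 stability. Related genes called higher in total RNA (14) were 26 on adjusted p alone and 9 with treat, and with a library left out 14 throughout; those lower (2) were 1 with library totals, quality weights or both ESC number 3 libraries left out, 10 on adjusted p alone, 0 with treat, and 1 to 2 with a library left out. In nascent RNA those higher (10) were 24 on adjusted p alone, 6 with treat and 9 to 13 with a library left out, and those lower (1) were 2 with edgeR's quasi-likelihood test, DESeq2 or the block by number, 4 on adjusted p alone and 1 to 2 with a library left out. For stability those higher (2) were 5 with quality weights, the culture block or both ESC number 3 libraries left out, 0 with treat and 2 to 4 with a library left out; those lower (0) were 1 without the filter, 2 on adjusted p alone and 0 to 1 with a library left out. Of all genes, 182 were called higher and 45 lower in stability (80.2% higher), against 66.7% with median-of-ratios scaling, 90% with library totals and 70.9% with TMM within each assay; the number higher ran from 2 (treat) to 738 (quality weights), was 680 without both ESC number 3 libraries, and ran from 39 (without the first EpiLC 4sU library) to 572 (without the third ESC total library). The cause of these moves was not tested.

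Same-numbered 4sU and total libraries deviated together in ESC (correlations of 0.163, 0.296 and 0.408) but hardly in EpiLC (0.0747, 0.0295 and 0.0234), so the data leave the pairing unsettled. With the replicate block by culture 405 genes were called higher for stability and with the block by number 281, both changes of over 1.5 times; member calls were the same, and Tpm1 stability, still under the fold threshold, had an adjusted p of 0.0143 and 0.0273 (limma-voom).

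Depth limits the members with few reads: Actg2, Mylk, and Acta1, Acta2 and Cnn1 in ESC. The 4sU libraries were the shallower, the spike-ins gave no absolute scale, and promoters of Tagln and Actg2 were not analysed here.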
